A study of Triticum aestivum with 12 samples.

Results

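The first part of wheat chromosome 1B was examined in immature grain: the protein-coding genes of the deposited table that start below 225 Mb on chromosome 1B, apart from genes annotated as nutrient reservoir (seed storage) proteins. These are 1444 of the 12357 protein-coding genes of chromosomes 1A, 1B and 1D in the table, which holds 25269 genes of all kinds. The same rule gave 1333 genes on chromosome 1A and 1552 genes on chromosome 1D, the chromosomes that carry the related copies of the same genes, and 3228 genes on the remainder of 1B. The genome build of the coordinates is not given in the sources used here, so the centromere was not placed.

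RNA sequencing was done on immature grain of bread wheat, Triticum aestivum, in 4 groups of 3 libraries. The groups were grain of the line labelled as mutant HPm512 and of the wild-type cultivar Zhoumai22 collected 20 days after anthesis, when flowers open, and grain of both collected at 30 days. High antioxidant activity is the phenotype labelled for the mutant. How it was made, which gene is changed in it and whether libraries came from separate plants are not stated. A p-value here thus reflects only how far libraries of a group lie apart, which can be technical.

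Bread wheat is a hexaploid, and most of its genes are present as near-identical copies, or homoeologues, on the A, B and D chromosomes of a group. In many cultivars the short arm of chromosome 1B has been replaced by the short arm of rye chromosome 1R, which carries disease resistance genes. Wheat genes of the replaced arm are then missing from the plant, and reads from their rye counterparts have no gene of their own in a wheat reference. Whether either cultivar carries such a replaced arm was not tested. The short arms of the group 1 chromosomes are known for storage protein loci and for dense clusters of resistance genes of the NB-ARC type.

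Library totals recovered from the table ranged from 59.3 M to 73.6 M reads. The counts of all genes of the table summed to only 9244968 to 15187939 reads per library. All genes and the bulk of genes below thus mean genes of this table, which hold a part of each library's reads. Most of the 5723 genes tested below are protein-coding genes of 1A, 1B and 1D, the members among them, so they do not stand for the whole genome. At the recovered totals 3 reads on a gene of 1 kb are worth 0.0408 to 0.0506 FPKM (read counts scaled by gene length and library total), and this floor covers counting error only. Marker genes were taken from the protein-coding genes of chromosomes 1A, 1B and 1D. Endosperm markers were abundant, with 10 of 11 gliadin genes and 2 of 2 thionin genes expressed, and all 8 embryo markers were expressed. Their summed levels per library ranged widely, with 4612 to 38140 FPKM for gliadins, 1295 to 8214 FPKM for thionins and 1375 to 4549 FPKM for embryo markers. Of 11 chlorophyll a-b binding genes, markers of green pericarp, 3 were expressed, at a summed 0.048 to 11.4 FPKM per library. Fewer cells of a type and less RNA per cell cannot be told apart in such whole-grain samples. Reads from near-identical copies on 1A and 1D can be split or misplaced by counting, so low values on 1B genes are uncertain.

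Most members gave no transcript that could be detected. A gene counted as expressed if 3 or more of the 12 libraries gave it at least 1 FPKM, and 190 members (13.2%) met this, against 547 genes (41.0%) in the same span of 1A and 667 genes (43.0%) in that of 1D. Not a single read was counted in any library for 782 members (54.2%), against 361 genes (27.1%) on 1A and 380 genes (24.5%) on 1D. The remaining 472 members (32.7%) had reads below the level of expression, a share close to the 31.9% of 1A and the 32.5% of 1D. By share, the spans thus differed in expressed genes and in genes with no read. Such shares do not tell how single genes differ from their related copies. The remainder of 1B did not share this difference: 1414 of its 3228 genes (43.8%) were expressed and 781 (24.2%) had no read.

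The members that were expressed were also expressed weakly. Their median level was 1.91 FPKM, against 3.87 FPKM for expressed genes of the 1A span, 4.08 FPKM for those of the 1D span and 3.70 FPKM for those of the remainder of 1B. Only 23 members averaged over 10 FPKM, against 125 genes on 1A and 147 genes on 1D. Of each M reads of a library, 1847 fell on the members on average (1405 to 2495 over libraries), whereas 10713 fell on the 1A span and 13313 on the 1D span. The 10 richest members held 44.8% of the 1509890 reads counted on all of them.

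Mutant and wild type shared this silence. At 20 days 11.3 ± 0.985% of members reached 1 FPKM in mutant libraries and 9.95 ± 0.778% in wild-type libraries (SD, n = 3 each). At 30 days the shares were 8.61 ± 0.223% in mutant libraries and 10.8 ± 0.106% in wild-type libraries. In the other spans, too, the mutant was the highest group at 20 days and the lowest at 30 days: 1A had 38.0, 36.1, 31.6 and 34.2% and 1D had 40.7, 37.9, 35.0 and 38.2% in mutant 20-day, wild-type 20-day, mutant 30-day and wild-type 30-day libraries. The highest library of the 1B span (12.5%) lay far below the lowest library of 1A (31.4%) or of 1D (34.7%), so the spans did not overlap in any library.

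**Figure D1:**
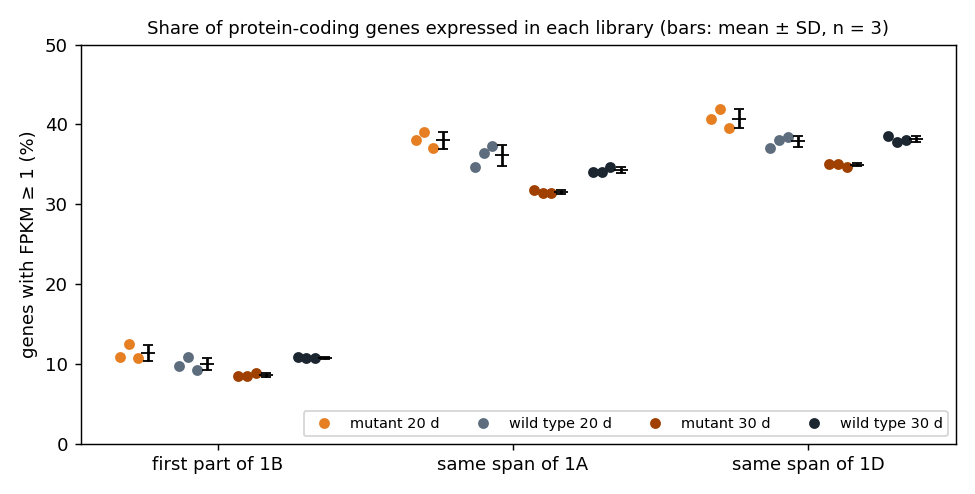
Share of protein-coding genes at 1 FPKM or more in each library (percent, vertical axis) for the first part of 1B and the same span of 1A and of 1D; points are libraries and the bars beside them are the mean ± SD of 3. The 1B libraries lie between 8.45 and 12.5%, those of 1A between 31.4 and 39.1% and those of 1D between 34.7 and 41.9%.

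Gene by gene, the sets of silent members were nearly the same in both cultivars. No read was found for 831 members in the mutant and for 841 in wild type. Between them were 59 members read in the mutant only and 49 read in wild type only, with a median of 6 and of 4 reads summed over 6 libraries. The most reads among these fell on TraesCS1B02G061600 (46690915 to 46693900, annotated with protein binding), which had 40, 75 and 80 reads in mutant libraries at 30 days and none in mutant libraries at 20 days or in wild type. In wild type only, TraesCS1B02G077300 had 33 and 45 reads in a pair of the 30-day libraries and none in the remaining library of that group. These 2 genes were chosen after their values were seen. In the 1A span 46 of 1333 genes were read in the mutant only and 41 in wild type only, and in the 1D span 57 and 36 of 1552. A mean of 1 FPKM or more was reached in both cultivars by 146 members, in the mutant alone by 4 and in wild type alone by 17. These counts were 470, 18 and 19 in the 1A span and 583, 17 and 26 in the 1D span. No member combined 0 reads in the 6 libraries of a cultivar with 1 FPKM or more in all 6 of the other.

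Along the arm, expression was lowest at the tip and climbed towards the end of the span. In successive windows of 25 Mb from the tip, 29 of 431, 20 of 193, 25 of 205, 14 of 89, 21 of 144 and 17 of 128 members were expressed, which is 6.73 to 15.7% per window. From 150 Mb on the counts were 33 of 133, 18 of 84 and 13 of 37, or 24.8, 21.4 and 35.1%. The next windows beyond the span held 16 of 32 (50%), 39 of 65 (60%) and 41 of 81 (50.6%) genes expressed. On 1A the share ranged from 30.9% at the tip to 70.6% in the last window before 225 Mb, and every 1A window of the span had a higher share than any 1B window up to 150 Mb. Mutant and wild type followed the same course on 1B: 4.41 and 5.57% of genes averaged 1 FPKM or more in the first window, and 27.0 and 29.7% in the last. Gene numbers in the last windows are small, so single genes move these shares by several points.

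**Figure D2:**
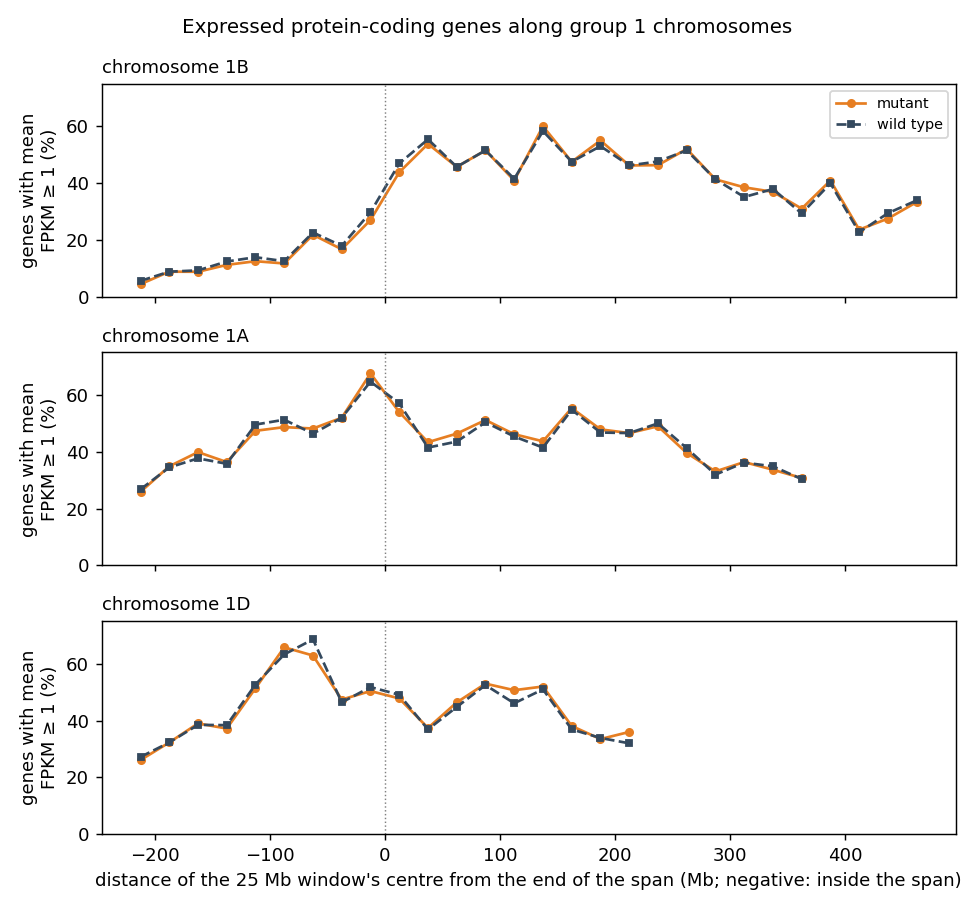
Share of protein-coding genes with a mean of 1 FPKM or more (percent, vertical axis) in windows of 25 Mb along 1B, 1A and 1D for the mutant (circles) and wild type (squares), against the distance of each window's centre from the end of the span in Mb (negative inside the span). On 1B the first windows lie at 4.41 to 12.5% in the mutant and 5.57 to 13.9% in wild type, and the windows beyond the span at 23.6% or more and 22.7% or more.

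The silence was densest in the outermost stretch. The longest runs of neighbouring members without a read in any library hold 34 genes. The first such run covers 1.87 Mb, from TraesCS1B02G002200 to TraesCS1B02G005500 (1705868 to 3575832). Another run of the same length goes from TraesCS1B02G025000 to TraesCS1B02G028500 (12343414 to 13678139). The last expressed member before the first run is TraesCS1B02G002000 (1522754 to 1534577), a corepressor of transcription, at a mean of 2.32 FPKM. The first expressed member of the span is TraesCS1B02G000800 (1203582 to 1207214), annotated to the peroxisomal membrane, at 1.33 FPKM in the mutant and 1.61 FPKM in wild type. The first expressed members of the next windows were TraesCS1B02G046300, of unknown function, at 0.882 and 0.964 FPKM in mutant and wild type, and TraesCS1B02G065900, a spliceosome gene, at 21.1 and 21.5 FPKM.

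The limit of the span itself was no sharp border. The last 5 members before it, TraesCS1B02G149300 to TraesCS1B02G149700, averaged 0, 1.29, 2.25, 0 and 0.101 FPKM over the 12 libraries. The first 5 genes beyond it, TraesCS1B02G149800 to TraesCS1B02G150200, averaged 0.862, 0, 1.04, 0.047 and 0.545 FPKM. Levels on the inner and the outer side of the limit overlap. In windows of 5 Mb, 2 of 5, 2 of 5 and 3 of 8 genes were expressed between 225 and 240 Mb, followed by 4 of 5 genes from 240 to 245 Mb, 5 of 9 from 245 to 250 Mb, 5 of 7 from 250 to 255 Mb, 8 of 8 from 255 to 260 Mb and 10 of 20 from 260 to 265 Mb.

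A comparison of like with like came from KEGG entries, which name a protein's function and are carried by exactly 1 gene on each of 1B, 1A and 1D in the table. Such a trio was taken as a stand-in for a set of homoeologues, since the table does not pair them. Of 73 trios inside the span, the 1B copy was expressed in 35, the 1A copy in 61 and the 1D copy in 62. No read was found for the 1B copy in 4 trios, the 1A copy in 1 and the 1D copy in 2. Most 1B copies that were not expressed thus had reads below the level of expression. The 1B copy was the lowest of the 3 in 69 trios and the highest in 0. In the 61 trios whose 1A and 1D copies were both expressed, the 1B copy supplied a median 7.19% of the summed FPKM (quartiles 4.26 and 10.7%). Beyond the span the 1B copy supplied 32.1% (quartiles 27.4 and 37.2%) over 112 trios, which is near an equal share among 3 copies. A share under 20% was found in 60 of the 61 trios inside and in 8 of the 112 beyond.

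The low share of the 1B copies was alike in both cultivars and at both times. It came to 7.29% in the mutant and 7.04% in wild type as a median over trios. By library the median was 7.02 ± 0.455% in mutant and 6.99 ± 0.862% in wild-type grain at 20 days, and 6.64 ± 0.898% in mutant and 6.44 ± 0.26% in wild-type grain at 30 days (SD, n = 3 each). The lowest and highest of the 12 libraries gave 5.63 and 7.82%, against 30.3 and 33.8% beyond the span. Within a trio, the mutant and the wild-type share differed by a median of 0.665 percentage points.

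**Figure D3:**
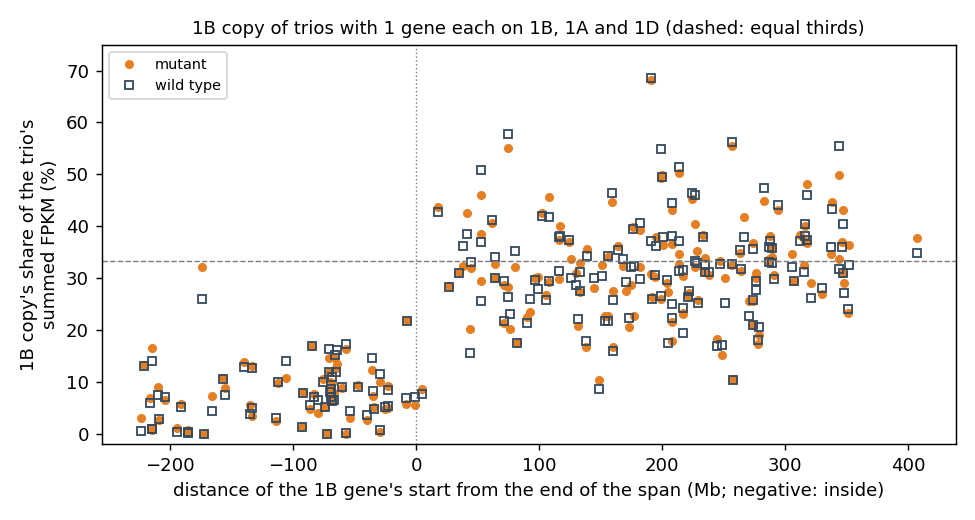
Share of the 1B copy in the summed FPKM of its trio (percent, vertical axis) against the distance of the 1B gene's start from the end of the span in Mb (negative inside), for the mutant (filled circles) and wild type (open squares); 1 pair of points per trio with expressed 1A and 1D copies. Trios that lie wholly inside the span have a median of 7.19%, and those wholly beyond it 32.1%.

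The median share of 1B copies was under 10% in every window of the span. Windows of 25 Mb from the tip gave medians of 6.39, 0.596, 8.09, 8.70, 9.86, 7.34, 8.83, 6.40 and 6.40% over 3 to 17 trios each. The share rose near the end of the span, but few trios lie there, so the place of the step is uncertain. TraesCS1B02G150400, at 230026679, supplied 8.23% of its trio, and the next 1B gene with a trio, TraesCS1B02G152300 at 242735361, supplied 43.2%. Inside the span TraesCS1B02G148500, at 217560018, supplied 21.8%. Single trios far beyond it can be low too, such as that of TraesCS1B02G207100, at 374328133, with 9.46%. The windows from 250 to 275 Mb and from 275 to 300 Mb had medians of 31.8 and 31.7%. Thus the rise of the expressed fraction between 150 and 225 Mb was not matched by a rise of the 1B share.

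A few 1B copies stood apart from this level. TraesCS1B02G066400 (50774894 to 50778871), with an alcohol dehydrogenase entry, supplied 29.5% of its trio, at 2.85 FPKM against 4.01 FPKM for the 1A copy and 2.78 FPKM for the 1D copy. It was the single trio of 61 above 20%. TraesCS1B02G148500 (217560018 to 217564857), a subunit of the mitochondrial ATP synthase, supplied 21.8% of a trio whose other copies do not both lie in the span. At the other end, 18 of the 61 1B copies supplied under 5%.

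The trios with the most abundant partners show the same imbalance in genes that every cell uses. The ribosomal protein gene TraesCS1B02G132700 (167712604 to 167714646) had 71.6, 65.3 and 60.8 FPKM in mutant and 49.2, 61.0 and 52.1 FPKM in wild-type grain at 20 days, and 91.3, 91.1 and 104 FPKM in mutant and 164, 165 and 162 FPKM in wild-type grain at 30 days. Its mean of 94.9 FPKM compares with 203 FPKM for the 1A copy and 261 FPKM for the 1D copy. It is the best expressed of the 1B copies in these trios and yet supplies 17.0%. A second ribosomal protein gene, TraesCS1B02G127200, averaged 39.0 FPKM, against 281 FPKM on 1A and 131 FPKM on 1D. Another ribosomal gene, TraesCS1B02G144300, averaged 0.665 FPKM, against 59.4 and 57.0 FPKM, and had no read in 8 of the 12 libraries.

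Enzymes of primary metabolism followed. The alanine aminotransferase gene TraesCS1B02G102700, whose product links amino acid and pyruvate metabolism, averaged 13.5 FPKM, against 61.1 FPKM on 1A and 62.5 FPKM on 1D. The fructokinase gene TraesCS1B02G124100, which feeds fructose from sucrose into starch synthesis, averaged 4.35 FPKM, against 31.2 and 48.3 FPKM. The acyl-CoA oxidase gene TraesCS1B02G129300, of fatty acid breakdown, averaged 13.1 FPKM, against 47.3 and 27.3 FPKM. Genes of protein handling behaved alike. The protein disulfide isomerase gene TraesCS1B02G126100, whose enzyme forms disulfide bonds in the endoplasmic reticulum, averaged 12.3 FPKM, against 44.6 and 46.1 FPKM, and the proteasome subunit gene TraesCS1B02G141900 averaged 6.08 FPKM, against 38.1 and 34.4 FPKM. TraesCS1B02G068200 (53050199 to 53052675) had no read in any of the 12 libraries, while its 1A and 1D counterparts averaged 49.1 and 35.5 FPKM.

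**Figure D4:**
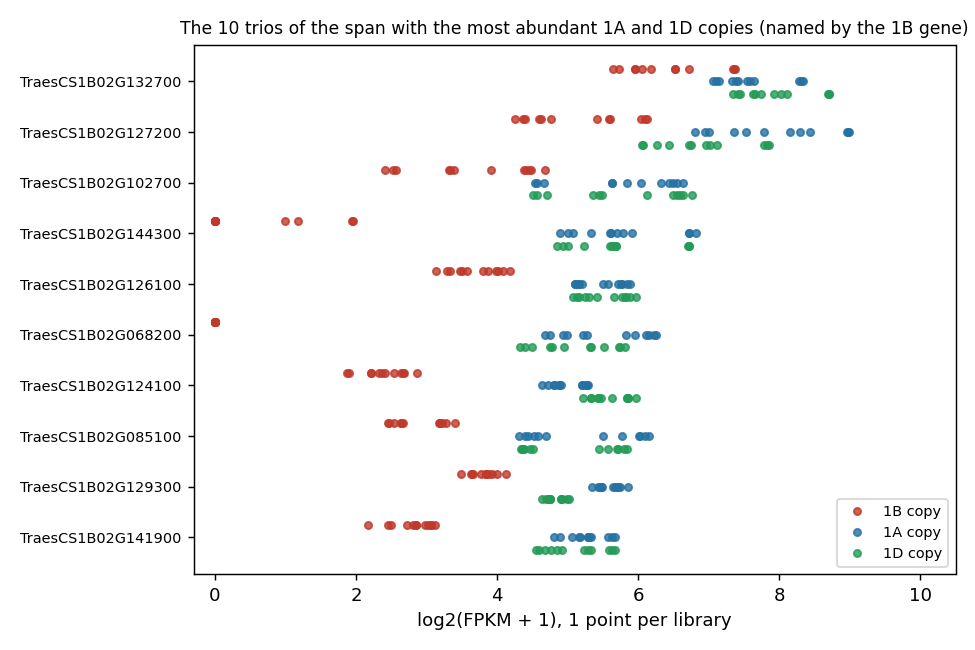
Level of each copy in the 10 trios of the span with the most abundant 1A and 1D copies, as log2(FPKM + 1) on the horizontal axis with 1 point per library; each row is a trio named by its 1B gene, with the 1B copy above the 1A and the 1D copy. In the rows of TraesCS1B02G132700 and TraesCS1B02G127200 the 1B copy averaged 94.9 and 39.0 FPKM, below both partners, and TraesCS1B02G068200 lies at 0 in the 12 libraries.

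Gene groups differed in how much of them was silent. Resistance genes of the NB-ARC type (annotated with ADP binding) had 0 of 84 members expressed, against 6 of 40 genes on 1A and 5 of 59 on 1D. No read was found for 65 of the 84, against 11 of the 40 on 1A and 22 of the 59 on 1D. Genes annotated with defense response had 0 of 8 expressed and no read on any of the 8, against 7 of 10 on 1A and 6 of 9 on 1D. Of the peroxidases, 0 of 14 were expressed, but only 2 of 14 were on 1A and 2 of 14 on 1D. Few NB-ARC genes and few peroxidases were thus expressed on any of the 3 chromosomes. The share of NB-ARC genes without a read was 77.4% on 1B, 27.5% on 1A and 37.3% on 1D. For peroxidases this share was 78.6, 71.4 and 57.1%, and for the whole spans 54.2, 27.1 and 24.5%.

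In signalling and gene regulation the expressed fraction on 1B was below that of 1A and of 1D in each group listed, as over the whole span (13.2% on 1B, 41.0% on 1A and 43.0% on 1D), and no group was tested against the span. Protein kinases had 6 of 82 members expressed, against 21 of 76 on 1A and 21 of 79 on 1D. DNA-binding proteins had 11 of 56, against 32 of 51 and 32 of 62, and RNA-binding proteins 5 of 21, against 18 of 21 and 25 of 28. Membrane transport genes had 4 of 17, against 12 of 24 and 14 of 27. Transcription factors were closer together, with 3 of 11 on 1B, 3 of 8 on 1A and 6 of 14 on 1D.

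Housekeeping groups kept the highest fractions. Structural proteins of the ribosome had 7 of 11 members expressed, against 9 of 9 on 1A and 14 of 17 on 1D. Yet the median level of these genes was 0.996 FPKM on 1B, 59.4 FPKM on 1A and 21.3 FPKM on 1D. Protein folding genes had 3 of 3 expressed, against 5 of 6 and 5 of 5, with a median of 1.44 FPKM against 8.18 and 21.0 FPKM. Members without any GO term had 32 of 428 expressed, against 147 of 458 on 1A.

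The expressed members are led by genes of lipid synthesis and of the ribosome. TraesCS1B02G101100 (111025254 to 111026767), an oxidoreductase of fatty acid biosynthesis, was the highest with a mean of 258 FPKM. It had 177, 187 and 91.6 FPKM in mutant and 133, 140 and 128 FPKM in wild-type grain at 20 days, and 281, 308 and 284 FPKM in mutant and 441, 453 and 467 FPKM in wild-type grain at 30 days. Its level was higher at 30 days in both cultivars, and at 30 days the mutant libraries lay below the wild-type libraries in FPKM. Relative to the bulk of genes the 30-day difference did not pass the test described below (log2 -0.17 ± 0.18, SE; adjusted p = 0.549, edgeR). The next were TraesCS1B02G130900, a ribosomal gene, at 114 FPKM, TraesCS1B02G120600, encoding 40S ribosomal protein S4, at 105 FPKM, and TraesCS1B02G132700 at 94.9 FPKM. A gene for a metal ion binding protein, TraesCS1B02G042200, averaged 80.3 FPKM, and a membrane protein gene, TraesCS1B02G080300, 42.6 FPKM.

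Below these came genes of mixed roles at up to 27.9 FPKM. They included the protease inhibitor gene TraesCS1B02G043800 (27.9 FPKM), the spliceosome gene TraesCS1B02G065900 (21.3 FPKM), TraesCS1B02G059100 (17.9 FPKM), whose glutathione dehydrogenase recycles the antioxidant ascorbate, and TraesCS1B02G044000 (16.3 FPKM), of the DNA repair and transcription complex TFIIH. TraesCS1B02G059100 had 18.1, 19.9 and 22.3 FPKM in mutant and 18.6, 17.0 and 18.0 FPKM in wild-type grain at 20 days, and 14.5, 14.5 and 14.2 FPKM in mutant and 20.8, 19.4 and 17.7 FPKM in wild-type grain at 30 days. In FPKM the mutant libraries lay below the wild-type libraries at 30 days, whereas relative to the bulk of genes its cultivar difference did not pass the test at either time (log2 -0.13 ± 0.12 and 0.05 ± 0.12, SE). Of the 190 expressed members, 154 averaged under 5 FPKM and 81 reached 1 FPKM in all 12 libraries.

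Differences between the cultivars were tested on the 190 expressed members in an edgeR quasi-likelihood fit of all 5723 expressed genes of the table, with Benjamini-Hochberg adjustment over all of them and calls at 0.05. The filter used the same level of expression as above, so the other 1254 members were not tested. Fold changes are scaled by TMM factors, which set the bulk of genes equal between libraries. With library totals alone, the median log2 difference of all genes moved to 0.32 at 20 days and -0.51 at 30 days, and that of the members to 0.32 and -0.49. Changes below are relative to the bulk of genes, and a ratio of FPKM values differs from them.

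At 20 days few members passed the test. Of the members, 2 (1.05%) were called, both lower in the mutant, against 2.29% of all genes tested (1.87% called lower). The calls of this comparison shift with single libraries: 13 members were called without mutant replicate 3 of the 20-day group, 0 without its replicate 2 and 1 without its replicate 1 or without wild-type replicate 1 or 2. Over all genes the number called was 131 and ranged from 11 to 414 as libraries were left out. With library totals alone 34 members were called, 30 of them higher and 4 lower in the mutant.

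At 30 days more members passed it. Of the members, 41 (21.6%) were called, 27 higher and 14 lower in the mutant, against 22.9% of all genes (13.6% higher and 9.3% lower). The share among the members is thus near that of all genes tested. With library totals alone 89 members were called, 14 higher and 75 lower, so the direction of the balance depends on the scaling. The cultivar difference averaged over both times was called for 13 members (6.84%), all higher in the mutant, against 7.51% of all genes (5.78% higher), and with library totals alone 12 were higher and 1 lower. Of the 13, 0 combined a mean of at least 1 FPKM with mutant and wild-type libraries that did not overlap. They include the protease inhibitor and starch synthase genes described below, which in the fit were lower in the mutant at 20 days and higher at 30 days. The median difference over the members was 0.01 at 20 days and -0.02 at 30 days, against 0.01 and -0.03 over all genes.

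Serine protease inhibitor genes were among the members called at 30 days. These small proteins block digestive proteases and are known in cereal grain as protection against insects and wounding. The 1B span holds 35 genes with this annotation, a group chosen after its values were seen. Of these, 3 were expressed and 31 had no read, against 3 of 21 genes expressed on 1A and 5 of 18 on 1D. All 3 expressed inhibitor genes were called higher in the mutant at 30 days, a call made for 13.6% of all genes tested. Endosperm markers moved in the same direction: gliadin genes summed to 23726 to 30758 FPKM in mutant and 4612 to 4716 FPKM in wild-type libraries at 30 days, and thionin genes to 4553 to 5347 FPKM in mutant and 1295 to 1321 FPKM in wild-type libraries. At 20 days the gliadin sums were 16758 to 32804 FPKM in mutant and 37218 to 38140 FPKM in wild-type libraries. Embryo markers overlapped at 30 days, with 2743 to 4549 FPKM in mutant and 3183 to 3385 FPKM in wild-type libraries. At 20 days they did not overlap, with 1375 to 1898 FPKM in mutant and 2573 to 2751 FPKM in wild-type libraries. Chlorophyll a-b binding genes summed to 0.801 to 1.69 FPKM in mutant and 0.048 to 0.408 FPKM in wild-type libraries at 30 days. Their sums at 20 days were 4.02 to 8.11 FPKM in mutant and 8.62 to 11.4 FPKM in wild-type libraries. The part of these differences in tissue markers in the cultivar and age differences of the members was not tested.

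TraesCS1B02G043800 (23839433 to 23840104) had 19.9, 14.9 and 10.9 FPKM in mutant and 26.0, 29.1 and 43.0 FPKM in wild-type grain at 20 days. At 30 days it had 55.0, 57.7 and 52.2 FPKM in mutant and 6.78, 9.12 and 9.77 FPKM in wild-type grain. The groups do not overlap at either time, and the order of the cultivars at 30 days is opposite to that at 20 days. The log2 difference was -1.41 ± 0.21 at 20 days (SE; adjusted p = 0.010, edgeR) and 3.15 ± 0.22 at 30 days (adjusted p = 6.65e-07, edgeR). Without mutant replicate 2 the 20-day difference of -1.35 no longer passed.

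The other expressed inhibitor genes lie closer to the tip and were also higher in the mutant at 30 days. TraesCS1B02G034300 (16501939 to 16502688) had 12.6, 16.7 and 9.13 FPKM in mutant and 0.749, 2.57 and 2.14 FPKM in wild-type grain at 30 days (log2 3.27 ± 0.38, SE; adjusted p = 3e-05, edgeR). TraesCS1B02G035000 (16658285 to 16658539) had 15.3, 23.1 and 16.4 FPKM in mutant and 4.02, 2.88 and 2.20 FPKM in wild-type grain (log2 3.04 ± 0.32; adjusted p = 1.54e-05, edgeR). At 20 days their differences of -1.36 and -1.17 did not pass (adjusted p = 0.056 and 0.0588, edgeR). All 3 genes lie in the first 25 Mb of the chromosome, and their reads may be shared with other inhibitor genes of the family.

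**Figure D5:**
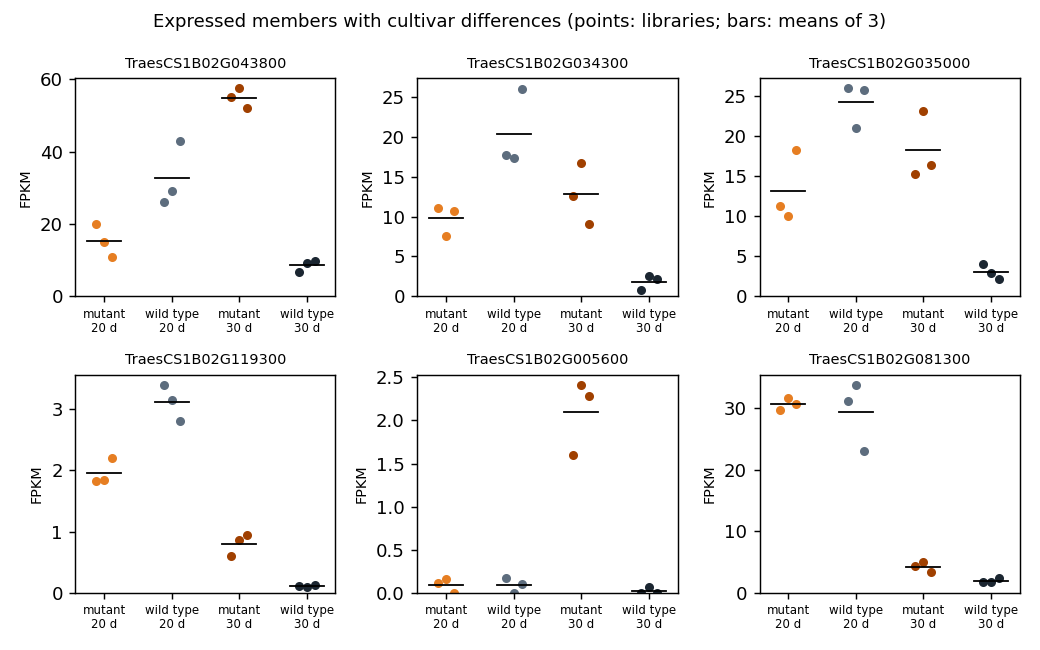
FPKM of 6 expressed members (vertical axes, each from 0) in mutant and wild-type grain at 20 and 30 days; points are libraries and bars are means of 3. The protease inhibitor gene TraesCS1B02G043800 averaged 15.2 FPKM in mutant and 32.7 FPKM in wild-type grain at 20 days, and 55.0 FPKM in mutant and 8.56 FPKM in wild-type grain at 30 days; the other genes are the inhibitors TraesCS1B02G034300 and TraesCS1B02G035000, the starch synthase TraesCS1B02G119300, TraesCS1B02G005600 and TraesCS1B02G081300.

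Other members called higher in the mutant than in wild type at 30 days had varied annotations. TraesCS1B02G119300 (141283445 to 141296283), a starch synthase that extends the chains of starch, had 0.597, 0.860 and 0.949 FPKM in mutant and 0.109, 0.0888 and 0.130 FPKM in wild-type grain at 30 days (log2 3.34 ± 0.22, SE; adjusted p = 5.48e-07, edgeR). At 20 days it had 1.82, 1.85 and 2.21 FPKM in mutant and 3.40, 3.15 and 2.81 FPKM in wild-type grain (log2 -0.97 ± 0.18; adjusted p = 0.0252, edgeR). Its order at 30 days is thus opposite to that at 20 days. The 20-day call was lost without mutant replicate 1 (-0.92) or 2 (-0.88) and without wild-type replicate 1 (-0.88) or 2 (-0.98).

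TraesCS1B02G081300 (63889226 to 63889982), annotated as the endosperm transfer cell protein PR60, had 4.41, 4.95 and 3.37 FPKM in mutant and 1.73, 1.71 and 2.46 FPKM in wild-type grain at 30 days (log2 1.58 ± 0.19; adjusted p = 5.63e-05, edgeR). Transfer cells take up nutrients from the mother plant at the base of the endosperm. TraesCS1B02G104500, a serine carboxypeptidase that trims proteins, had 1.32, 0.864 and 0.997 FPKM in mutant and 0.0727, 0.0815 and 0.387 FPKM in wild-type grain (log2 2.99; adjusted p = 0.00574, edgeR). TraesCS1B02G019100, a GTPase gene (9069399 to 9073186), was higher in the mutant by a log2 of 1.65 (adjusted p = 0.000127, edgeR), with 3.84, 3.78 and 3.23 FPKM in mutant and 2.08, 1.23 and 1.47 FPKM in wild-type grain. These groups of libraries do not overlap.

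TraesCS1B02G005600 (3655656 to 3658361), annotated with responses to sucrose and nitrogen, lies at the inner edge of the first of the longest silent runs. It had 1.60, 2.41 and 2.29 FPKM in mutant and 0, 0.0685 and 0 FPKM in wild-type grain at 30 days (adjusted p = 0.00102, edgeR). At 20 days it had 0.110, 0.154 and 0 FPKM in mutant and 0.173, 0 and 0.0946 FPKM in wild-type grain. It was thus near the floor in 3 of the 4 groups, and its fitted log2 difference of 6.70 rests on a single wild-type library with reads. The gene met the filter for testing only through the mutant libraries of 30 days, the group where it is high. Its call therefore adds no separate support for a cultivar difference.

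The members called lower in the mutant than in wild type at 30 days included 3 of the 7 expressed ribosomal members. TraesCS1B02G130900 (162805763 to 162806230) had 106, 90.0 and 98.0 FPKM in mutant and 196, 201 and 218 FPKM in wild-type grain at 30 days (log2 -0.59 ± 0.08, SE; adjusted p = 0.000162, edgeR). At 20 days it had 99.6, 95.1 and 83.6 FPKM in mutant and 61.8, 61.4 and 58.1 FPKM in wild-type grain (log2 0.31 ± 0.08; adjusted p = 0.0668, edgeR). The 40S ribosomal protein S4 gene TraesCS1B02G120600 had 103, 95.5 and 101 FPKM in mutant and 181, 185 and 187 FPKM in wild-type grain at 30 days, a log2 difference of -0.41. Of the 7 expressed ribosomal members, 3 were called lower in the mutant at 30 days (6 with library totals alone), a call made for 9.3% of all genes tested, and the others did not pass. Among the 3, TraesCS1B02G132700 (log2 -0.31), lost its call without mutant replicate 1 or 2 or any wild-type library of 30 days (-0.27 to -0.34).

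The following members, lower in the mutant than in wild type at 30 days, had low levels. TraesCS1B02G112300, of unknown function, had 0, 0.127 and 0 FPKM in mutant and 0.730, 1.62 and 1.44 FPKM in wild-type grain at 30 days, and its call at 30 days was lost without mutant replicate 1 or 3 (log2 -3.71 and -3.76, against -4.30). The RNA processing gene TraesCS1B02G085800 had 1.46, 1.18 and 1.5 FPKM in mutant and 2.99, 2.71 and 3.07 FPKM in wild-type grain (log2 -0.61; adjusted p = 0.00599, edgeR). The mitochondrial protein gene TraesCS1B02G108800 had 1.89, 1.26 and 1.47 FPKM in mutant and 3.28, 3.47 and 3.66 FPKM in wild-type grain (log2 -0.70; adjusted p = 0.0123, edgeR). The dihydrolipoyl dehydrogenase gene TraesCS1B02G124900, of pyruvate oxidation, was lower in the mutant by a log2 of 0.73. Its call was lost without mutant replicate 1 or 2 or any wild-type library of 30 days (-0.52 to -0.79). In these 4 genes each mutant library lay below each wild-type library at 30 days. At 20 days the order was the opposite in FPKM: TraesCS1B02G112300 had 2.07, 2.07 and 1.32 FPKM in mutant and 0.528, 0 and 0.485 FPKM in wild-type grain, and TraesCS1B02G124900 had 5.75, 5.64 and 5.45 FPKM in mutant and 2.98, 2.28 and 3.71 FPKM in wild-type grain. The mutant libraries of TraesCS1B02G085800 (1.66, 1.45 and 1.12 FPKM) and TraesCS1B02G108800 (2.13, 2.21 and 1.83 FPKM) likewise lay above those of wild type (0.848, 1.01 and 0.748 FPKM for the first, 1.57, 1.20 and 1.28 FPKM for the second). None of these 4 differences passed at 20 days (adjusted p = 0.143 to 0.374, edgeR).

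The 1B copies were set beside their partners for the alanine aminotransferase trio. At 30 days TraesCS1B02G102700 (112748629 to 112753960) had 9.46, 9.11 and 8.95 FPKM in mutant and 4.91, 4.75 and 4.32 FPKM in wild-type grain, a log2 difference of 1.45 ± 0.16 (SE). The 1A copy, TraesCS1A02G085600, had 56.3, 48.6 and 48.4 FPKM in mutant and 24.3, 22.3 and 22.8 FPKM in wild-type grain (1.61 ± 0.14), and the 1D copy, TraesCS1D02G086700, differed by 1.34 ± 0.14. All 3 copies were thus higher in the mutant than in wild type, by amounts that lie close together, at levels that differ several-fold. This is 1 trio, and whether the copies of other trios change together was not tested. Over the 35 trios with 3 expressed copies, 4 1B copies were higher and 3 lower in the mutant at 30 days, against 5 and 4 of the 1A copies and 6 and 7 of the 1D copies.

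Grain age moved many members. In the mutant 93 members (48.9%) were called between 30 and 20 days, 51 higher and 42 lower at 30 days, against 57.8% of all genes (29.9% higher and 27.9% lower). In wild type 109 members (57.4%) were called, 55 higher and 54 lower, against 63.7% of all genes (31.8% higher and 31.9% lower). With library totals alone the split was 18 higher and 84 lower in the mutant and 74 and 42 in wild type.

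Ribosomal members were called higher at 30 days in 4 of 7 cases in the mutant (3 with library totals alone) and in 7 of 7 in wild type (6 by DESeq2), against 29.9% of all genes in the mutant and 31.8% in wild type. TraesCS1B02G105100 (116972992 to 116977617), encoding the ribosome biogenesis protein NOP53, had 15.1, 13.3 and 15.8 FPKM at 30 days against 4.61, 3.58 and 3.34 FPKM at 20 days in the mutant (log2 2.47 ± 0.18, SE). In wild type it had 28.2, 27.0 and 28.0 FPKM at 30 days against 2.38, 3.92 and 4.32 FPKM at 20 days (log2 2.73 ± 0.18). Among members with a mean of at least 3 FPKM, the largest rise in either cultivar was that of the membrane protein gene TraesCS1B02G047600, with 27.9, 29.7 and 25.5 FPKM at 30 days against 3.55, 3.19 and 1.36 FPKM at 20 days in the mutant (log2 3.90 ± 0.29). Both genes rose in both cultivars and their libraries did not overlap between the times.

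Among members that fell with age were a histone gene and the transfer cell gene. The histone H2A gene TraesCS1B02G049100 (28762792 to 28763678), a packing protein of newly copied DNA, had 0.136, 0 and 0.194 FPKM at 30 days against 13.1, 13.0 and 10.2 FPKM at 20 days in the mutant (log2 -6.12 ± 0.52, SE). In wild type it had 0.509, 0.296 and 0.771 FPKM at 30 days against 5.61, 5.51 and 8.04 FPKM at 20 days (log2 -3.82 ± 0.43). The transfer cell gene TraesCS1B02G081300 fell by 2.31 in the mutant and by 4.13 in wild type. The members named for their change with age were chosen after their values were seen.

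The protease inhibitor genes changed with age in opposite directions in the cultivars. TraesCS1B02G043800 rose by 2.40 ± 0.21 in the mutant (adjusted p = 7.9e-07, edgeR) and fell by 2.17 ± 0.21 in wild type (adjusted p = 1.29e-06, edgeR). The difference of these changes is 4.57 (adjusted p = 6.63e-07, edgeR), a term called for 45 members (23.7%) and 24% of all genes. All 3 expressed inhibitor genes were called higher at 30 days in the mutant and lower at 30 days in wild type, against 29.9% of all genes called higher in the mutant and 31.9% called lower in wild type. For TraesCS1B02G034300 and TraesCS1B02G035000 the rise in the mutant (0.92 and 0.99) was lost with library totals alone (0.39 and 0.47), without mutant replicate 2 of 20 days (0.72 and 0.78) or of 30 days (0.60 and 0.71) and, for the first of them, without mutant replicate 1 of 30 days (0.91). The starch synthase gene TraesCS1B02G119300 fell by 0.75 ± 0.19 in the mutant and by 5.06 ± 0.23 in wild type (adjusted p = 0.00379 and 2.72e-09, edgeR).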

How the data were processed

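The labels put 12 RNA libraries of immature grain into 4 groups of 3. The authors deposited 1 table with read counts and FPKM per gene, per the file headers. The submitters' processing notes name cutadapt 1.9 and FastQC. Genome build, aligner, counter and use of strand were not given in the sources used here. Of 25270 lines the last was incomplete and left out. FPKM holds 0.0001 where the deposited count is 0 and was read as 0. For 43 non-coding genes the deposited count divided by FPKM gave each library's total.

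Genes at 1 FPKM or more in at least 3 libraries (5723) were tested on the deposited counts with edgeR 4.0.16's quasi-likelihood test in R 4.3.3, the TMM scaling of these totals, a mean per group and all 12 libraries in 1 fit, with Benjamini-Hochberg adjustment over all genes. The SE is the absolute log2 fold change divided by the square root of the F statistic. Shares of genes and of trios are descriptions without a test. Alternatives were other scalings, DESeq2 1.42.0, limma 3.58.1 on log2(FPKM + 1), no filter, a replicate block and leaving out libraries in turn. The fit was tested on simulated data.

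Members, gene lists, alternatives and the rule for named genes were chosen with earlier results of these data known. The named genes are the 15 members with the highest mean, the 6 largest rises and falls called without overlap at 1 FPKM or more per cultivar comparison, the first expressed member of 3 windows, 5 genes on each side of the end of the span and the 10 trios with the highest 1A and 1D levels. Gene roles are those of the table; 0 of its identifiers matched the RefSeq table.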

Additional observations from a re-analysis of the deposited data

Results flagged for a closer look

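For 17 named members the cultivar difference at 30 days was not that at 20 days, by the interaction term of the same edgeR fit, adjusted over all 5723 genes tested. The members screened were named for a high mean or for a cultivar call without overlap in that fit. Choosing genes by such calls favours a difference between the times, so the number 17 is no separate support for one. The values are the log2 difference (mutant over wild type) at 30 days minus that at 20 days. The protease inhibitor genes gave 4.57 for TraesCS1B02G043800 (adjusted p = 6.63e-07, edgeR), 4.63 for TraesCS1B02G034300 and 4.21 for TraesCS1B02G035000. The starch synthase gene TraesCS1B02G119300 gave 4.31, the carboxypeptidase gene TraesCS1B02G104500 gave 4.27, the GTPase gene TraesCS1B02G019100 gave 1.96 and the PR60 gene TraesCS1B02G081300 gave 1.82. TraesCS1B02G005600 gave 7.09, with 1 wild-type library with reads at 30 days, and met the filter for testing only through the mutant libraries of 30 days. Negative values came from the ribosomal genes TraesCS1B02G130900 (-0.90) and TraesCS1B02G120600 (-0.69), the metal ion binding gene TraesCS1B02G042200 (-0.71, adjusted p = 0.0495, edgeR) and the ATP synthase gene TraesCS1B02G148500 (-0.58). The dihydrolipoyl dehydrogenase gene TraesCS1B02G124900 gave -1.33, TraesCS1B02G108800 and TraesCS1B02G085800 gave -1.0 each, the ubiquitin protease gene TraesCS1B02G149400 gave -1.17 and TraesCS1B02G112300 gave -6.36. Over all members tested, 45 of 190 (23.7%) were called for this term, 24 with a positive and 21 with a negative value, against 24% of all genes (13.1% positive and 10.9% negative). The share among the members is thus near that of all genes.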

How the results depend on the processing

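At 20 days 2 members were called, against 34 with library totals alone, 14 with DESeq2, 40 with limma, 1 with the replicate block and 0 to 13 when a library was left out. At 30 days 41 members were called, against 89 with library totals alone, 48 with DESeq2, 87 with limma, 33 with the replicate block and 28 to 40 when a library was left out. The mean share of expressed genes on 1B, 10.2% of members per library, was 15.4% at 0.5 FPKM, 6.02% at 2 FPKM, 32% at 1 read or more and 8.09% below 150 Mb. For the same span of 1A (35.0%) it was 41.9, 27.5 and 59.2% at these levels, and for that of 1D (37.9%) 44.2, 30.0 and 62.0%, and 35.3% below 150 Mb. The order of the spans held at each of these settings. The median 1B share of trios, 7.19%, was 6% below 150 Mb. Resistance genes of the ADP binding group stayed at 0 expressed at 0.5 and at 2 FPKM. Of 486 recalculations of 27 calls of named genes, 60 lost the call and 0 changed direction, and 15 calls were never lost. Replicate numbers were not treated as pairs in the main fit. The deviations of same-numbered libraries correlated at -0.159 to 0.322 over 18 pairs, and those of other numbers at -0.426 to 0.266. These ranges overlap, so they cannot settle whether same-numbered libraries are paired. With the replicate block 21 genes of the table were called at 20 days, against 131 without it. The recovered totals rest on 43 non-coding genes. Members with 1 to 9 reads in all 12 libraries (89) lie too near the floor of 3 reads to be compared between cultivars.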

Other observations

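The seed storage genes that the rule leaves out are few in the span. On 1B 17 such genes were left out, of which 5 were expressed and 10 had no read, with a highest mean of 169 FPKM. On 1A 6 of 12 were expressed, up to 4221 FPKM, and on 1D 7 of 12, up to 8973 FPKM.

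Some members were read at 1 FPKM or more in a library and not at all in another of the same group. This held for 7 of the 229 members that reached 1 FPKM in any library (3.06%), against 6 of 591 genes in the 1A span (1.02%) and 7 of 722 in the 1D span (0.97%). The highest of them on 1B, TraesCS1B02G080900 (63468452 to 63480702), had 0.0327, 12.3 and 0 FPKM in mutant and 0, 18.1 and 10.7 FPKM in wild-type grain at 20 days, and no read at 30 days.

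Most non-coding RNA genes of the 1B span had no read. Of 524 ribosomal RNA genes 22 were expressed, up to 9.37 FPKM, against 45 of 185 on 1A and 0 of 261 on 1D, and 463 had no read, against 79 on 1A and 256 on 1D. No read was found for 18 of 18 transfer RNA genes, against 17 of 18 on 1A and 16 of 19 on 1D. Of the small nucleolar RNA genes 30 of 33 had no read, against 5 of 6 on 1A and 8 of 8 on 1D.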
